A study of Mus musculus with 2 samples.

Results

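Negative elongation factor, of which NELF-B is a subunit, keeps RNA polymerase II paused soon after transcription has begun. The regions described here are the tall and narrow ones among the sites where NELF-B was enriched on the chromosomes of mouse embryonic fibroblasts, connective tissue cells cultured from an embryo. They were chosen from a list of 9095 regions by a summit height of 93 or more and a width of 1.157 kb (1 kb is 1000 bp) or less. These limits kept 229 regions. The other 682 regions of height 93 or more, all above that width limit, are called the wider tall regions and served for comparison.

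The data come from chromatin immunoprecipitation followed by sequencing (ChIP-seq), with 1 NELF-B library and 1 input library of unprecipitated DNA. Only the NELF-B library has values here, and neither library has a replicate. Both were made from fibroblasts of a Nelf-b f/- embryo, a genotype with 1 floxed and 1 null copy of the gene, on a background mixed from the strains 129/SvJ, C57BL/6 and FVB. The cells grew asynchronously in medium with 10% serum, and the labels name no treatment. Both libraries share this genotype, so no other genotype can be compared. NELF-B was pulled down with a purified polyclonal antibody. Chromatin was sheared to 300 to 500 bp, and sizes of 175 to 225 bp were selected for the libraries, which had 18 PCR cycles.

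The factor acts together with a partner, DSIF, on polymerase that has made only a short stretch of RNA. Release of the paused polymerase needs the kinase P-TEFb, after which the factor leaves the polymerase. In published work on many cell types, signal for this factor is known to gather close to the starts of active genes, where paused polymerase is found. A region in such a list records how far the signal spread along the DNA, and its summit records where the signal was highest. Height is given in the authors' own whole-number unit, which the file does not define, so heights are compared only within this list. The sequencing depth is unknown. No source used here names the genome build. Positions are therefore printed as the file has them, and regions carry no gene names or sequences.

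Heights of the 229 regions ran from 93 to 379. Their median height was 113, with quartiles of 99 and 135, against a median of 44 over the whole list. Widths ran from 334 bp to the limit of 1.157 kb, with a median of 1041 bp and quartiles of 960 and 1095 bp. Most widths thus lay in the upper part of the range allowed, and 8 were narrower than 800 bp. The wider tall regions had a median width of 1483.5 bp and a median height of 120.5. Height per 100 bp of width had a median of 11.2 in the tall and narrow regions, 8.29 in the wider tall regions and 3.86 in the whole list. Height and width chose these regions, so these values describe the choice and are not results.

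The limits cut through a continuous range of values. At the height limit, 10 of the 229 regions had a height of 93 and 8 a height of 94, while 11 regions of the same narrow widths had heights of 91 or 92 and were left out. The first 2 left out reached 92, at chromosome 1 from 58480371 to 58481259 and at chromosome 19 from 8848495 to 8849644. At the width limit, the widest region kept matched it exactly, on chromosome 17 at 75116449 to 75117605 (height 121). The narrowest tall region left out was 1 bp wider, on chromosome 17 at 27109507 to 27110664 (height 113). Within 10 bp of the limit, 13 regions were kept and 10 were left out.

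**Figure D1:**
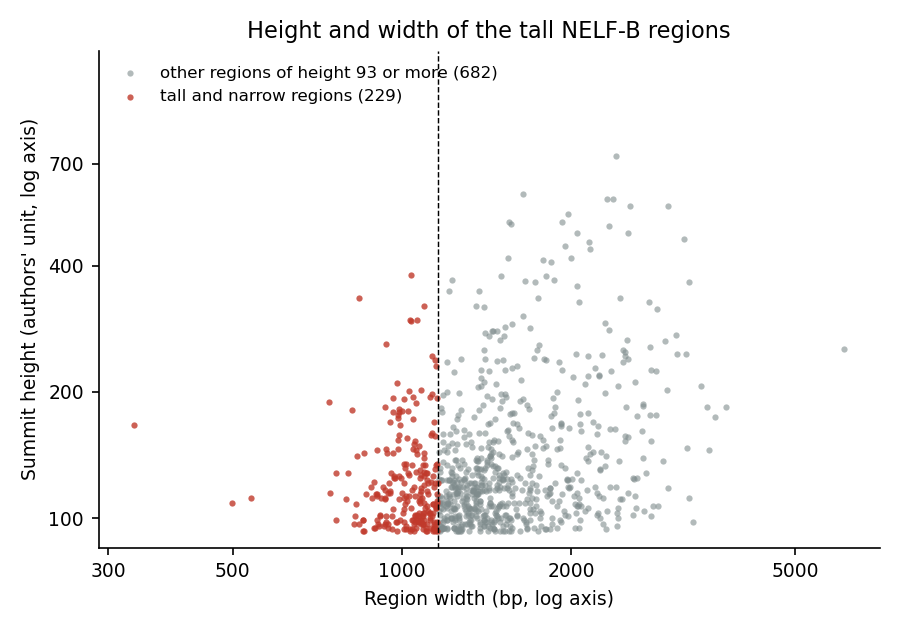
Summit height (authors' unit, log axis) against region width (bp, log axis) for the 911 regions of height 93 or more, 1 point per region. The dashed line marks the width limit of 1.157 kb; the 229 tall and narrow regions lie to its left, with the narrowest at 334 bp, and all heights above 379 lie to its right.

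The narrow share of the tall regions was lower at the greatest heights, which is a description, since height and width chose the regions. Of the 911 tall regions, 25.1% were narrow (exact Clopper-Pearson 95% interval 22.3 to 28.1). The share was 30.1% at heights of 93 to under 110 (99 of 329, interval 25.2 to 35.4) and 26.8% from 110 to under 130 (64 of 239). From 130 to under 150 it was 22.5% (23 of 102), and from 150 to under 200 it was 24.6% (30 of 122). At heights of 200 or more, 13 of 119 were narrow, or 10.9% (5.95 to 18.0). These intervals, like all others given here, treat regions as independent and reflect counting error alone, without any spread between libraries. Inside the chosen set, width and height had a Spearman's rho of -0.04 over 229 regions, in a set whose widths the choice had cut off at the top. Over the 682 wider tall regions rho was 0.33, and over the whole list it was 0.42.

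The 10 tallest of these regions lay on 6 chromosomes, and they were also the only 10 among the 100 tallest of the list. First among them was a region on chromosome 17, at 24856454 to 24857492, that reached 379 in 1039 bp, the 22nd tallest of all regions. Its summit lay at 24857056, or 58.0% of the way along the region. The nearest other region, 11.4 kb away, reached only 97, and 27 other regions had midpoints within 500 kb.

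The next in height, on chromosome 3 at 108357145 to 108357983, reached 334 in 839 bp. Another of the 10 lay 16.1 kb away on the same chromosome, from 108374061 to 108375190, with a height of 244 in 1130 bp. Between these lay 1 region of height 39, from 108364871 to 108366028. A tall, narrow pair was thus separated by a region below the median height of the list. That region was 1158 bp wide.

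Other tall and narrow regions of this rank stood far from any tall neighbour. On chromosome 2, the region from 51004041 to 51005079 reached 295 in 1039 bp, and the nearest region of height 93 or more was 16.3 Mb away. Only 2 other regions of any height had midpoints within 500 kb of it, and the nearest of all, 270 kb off, reached 29. On chromosome 1, the region from 156946216 to 156947309 reached 320 in 1094 bp. Its nearest tall neighbour was 940.2 kb away, with a height of 125 in 970 bp.

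On chromosome 11 were 3 of the 10. That from 87256787 to 87257849 reached 297 in 1063 bp, and its summit lay at 28.4% of the width. It had a tall neighbour 4.33 kb away, from 87262178 to 87263577, with a height of 319 in 1400 bp. The region from 115375282 to 115376219 reached 260 in 938 bp, among 21 other regions with midpoints within 500 kb. The third, from 3996073 to 3997215, reached 238 in 1143 bp with its summit at 74.9% of the width. Chromosome 8 held the last pair, from 20019674 to 20020705 with a height of 296 and from 125748160 to 125749309 with a height of 230. No replicate exists against which this order of heights could be checked.

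The narrowest region carried the largest height for its width. It spanned 334 bp on chromosome 13 from 21923869 to 21924202 and reached 167, or 50 per 100 bp, the highest value of all 9095 regions. Its nearest neighbour lay 43.7 kb away, from 21877706 to 21880125, and had a height of 100 spread over 2420 bp. The next narrowest were 499 bp and 539 bp wide, both on chromosome 11, with heights of 109 and 112. Then came 741 bp on chromosome 13, at 81022448 to 81023188 (height 189), and 744 bp on chromosome 17, at 56752394 to 56753137 (height 115). These 5 had summits at 32.5% to 59.0% of their widths.

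Summits of the tall and narrow regions lay close to the midpoint. In 176 of the 229, or 76.9% (70.8 to 82.2), the summit fell in the central zone from 40% to 60% of the width. Over all 9095 regions this share was 51.0%, and among the wider tall regions it was 41.3% (282 of 682, 37.6 to 45.1). The difference from the wider tall regions was 35.5 percentage points (Newcombe 95% interval 28.5 to 41.7). The median distance from summit to midpoint was 54 bp (exact binomial interval of the median 43.5 to 66.5) in the tall and narrow regions. In the wider tall regions it was 175 bp (162 to 188). A summit cannot lie farther from the midpoint than the region reaches, so distances in bp are tied to the width that chose the regions. As a share of the width, the median distances were 5.30% and 11.7%. The width is the sum of the 2 sides of the summit, so the position within the region is not fully separate from the choice either.

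The distribution of summit positions had a different shape in the wider tall regions. Of the tall and narrow regions, 25.3% had their summit between 45% and 50% of the width, the fullest of 20 bins, and 22.3% between 50% and 55%. Of the wider tall regions, 7.77% and 10.3% fell in those bins, while 12.9% fell between 60% and 65% and 10.6% between 35% and 40%. The bin from 45% to 50% thus held fewer of the wider tall regions than the bins on either side, with 10.7% between 40% and 45%. This rests on a single bin, and no intervals were computed for bins. Summits in the outer 30% on either side were found in 9 of the 229 tall and narrow regions, or 3.93%, against 14.7% of the whole list, 8.79% of narrow regions of lower height and 18.0% of the wider tall regions (difference -14.1 points, -17.7 to -9.79).

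**Figure D2:**
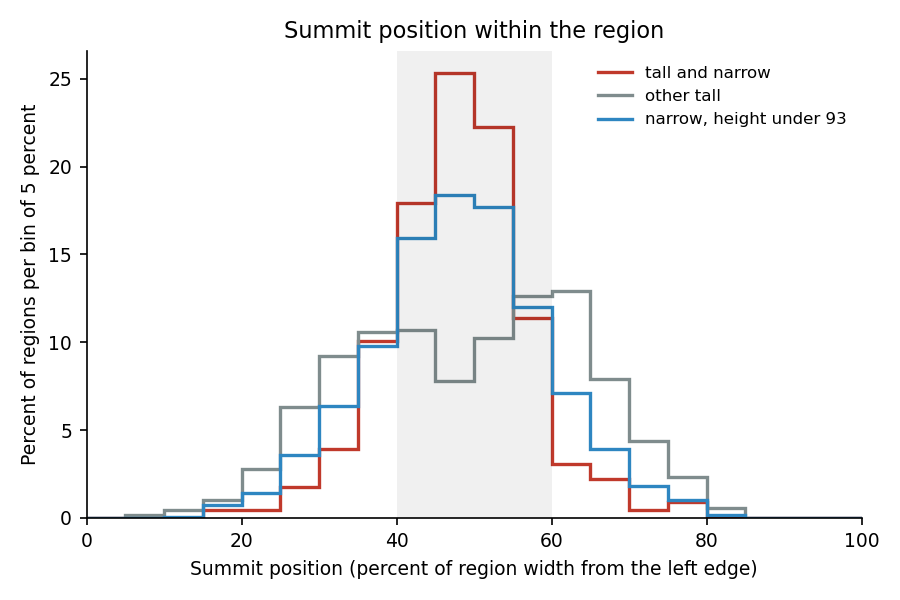
Percent of regions (vertical axis) by summit position in bins of 5 percent of the region width (horizontal axis, from the left edge), for the tall and narrow regions, the wider tall regions and narrow regions of height under 93. The shaded zone runs from 40% to 60%; the tall and narrow regions peak at 25.3% in the bin from 45% to 50%, where the wider tall regions have 7.77%.

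The sides of the summit add up to the width that separates the sets, so their lengths are given as a description only. In the tall and narrow regions the shorter side had a median of 454 bp and the longer side 571 bp. In the wider tall regions the shorter side had a median of 544.5 bp and the longer side 934.5 bp. The longest reach of a tall and narrow region was 880 bp from its summit, under a width limit that caps it at 1.157 kb. Among the wider tall regions, 281 reached beyond 1000 bp and 19 beyond 2000 bp.

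**Figure D3:**
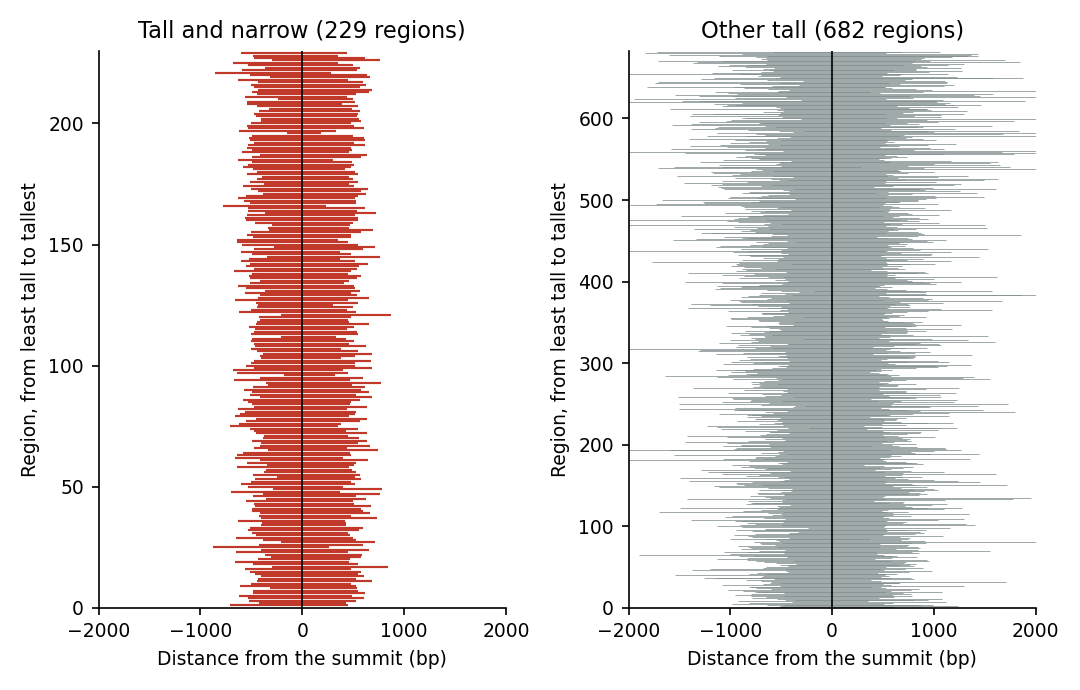
Extent of each region to the left and right of its summit (horizontal axis, bp), 1 line per region, ordered by height from the bottom up, for the 229 tall and narrow regions and the 682 wider tall regions. The axis ends at 2000 bp on each side, past which 19 wider regions continue; the tall and narrow regions end within 880 bp of the summit on either side.

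Centring was similar across the widths kept and lower in the next width class. Width chose the regions and is the sum of the 2 sides of the summit, so these shares are a description. Among tall regions of up to 1000 bp, 77.1% had a central summit (64 of 83, 66.6 to 85.6). From there to the width limit the share was 76.7% (112 of 146, 69.0 to 83.3). In tall regions above the limit and up to 1300 bp it was 58.5% (96 of 164, 50.6 to 66.2), and above 1300 and up to 1500 bp it was 36.3% (69 of 190, 29.5 to 43.6). It did not fall further in the 2 wider classes, with 34.4% and 37.4%. Within each band of height the tall and narrow regions had the higher share: 71.7% against 42.6% at heights under 110, 81.2% against 39.4% from 110 to under 130, 87.0% against 40.5% from 130 to under 150, and 83.3% against 41.3% from 150 to under 200. At heights of 200 or more the shares were 61.5% (8 of 13, 31.6 to 86.1) and 42.5% (45 of 106, 32.9 to 52.4), and these intervals overlap.

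Narrow regions of lower height had less central summits at like widths. Of the 4553 narrow regions with heights under 93, 64.0% had a central summit (62.6 to 65.4), 12.8 points below the tall and narrow regions (6.77 to 18.0). These regions were also narrower, with a median of 960 bp, so the comparison was repeated for narrow regions of at least 900 bp. Below height 93 the share was then 63.6% (61.8 to 65.4), and at 93 or more it was 77.6% (71.2 to 83.2). There the share was 55.6% (52.1 to 59.0) at heights of 12 to under 32, 63.9% (60.6 to 67.0) from 32 to under 44, and 70.7% (67.4 to 73.8) from 44 to under 65. It was 65.7% (60.9 to 70.3) from 65 to under 93, 76.1% (67.3 to 83.5) from 93 to under 120, and 79.8% (69.6 to 87.7) at 120 or more. The rise with height was not steady, since the fourth class lay below the third. Median widths in these 6 classes differed little, from 1010 to 1066 bp.

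More summits lay to the left of the midpoint than to the right, but the step of the positions matters at this scale. Of all 9095 summits in the list, 9005 were multiples of 16 bp. In 228 of the 229 tall and narrow regions the summit was such a multiple. The exception was on chromosome 6, with its summit at 11875787 and a height of 110. The summit lay left of the midpoint in 137 of the 229, or 59.8% (53.2 to 66.2), with a median offset of -19 bp. Moving every summit right by 8 bp, the middle of a step, lowered the share to 55.9% (49.2 to 62.4), an interval that includes 50%. As deposited, 53.8% lay left in the whole list, 56.3% among narrow regions of lower height and 49.0% among the wider tall regions. After the same move these shares were 51.7%, 53.2% and 48.5%. The difference from the wider tall regions was 10.9 points (3.38 to 18.0), and 7.36 points (-0.121 to 14.7) after the move. With heights of up to 150 the moved difference was 7.55 (-0.877 to 15.8), which includes 0. Without chromosome 13 it was 8.64 (0.978 to 16.1), which does not. Left and right here follow the coordinates and not the direction of any gene.

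The summits farthest from the middle were few. The largest distance was 330 bp, on chromosome 5 from 29895216 to 29896293, where the summit at 29895424 left 209 bp on its left and 869 bp on its right. On chromosome 3, the region from 137526673 to 137527816 had its summit 308 bp from the midpoint, and on chromosome 4 the region from 126697812 to 126698824 had it 274.5 bp away. The other two in the first 5 were on chromosome 11, at 3996073 to 3997215 (284.5 bp) and 87285498 to 87286631 (272 bp). In 2 regions the summit lay exactly at the midpoint.

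All 19 autosomes and X held tall and narrow regions. Chromosome 11 had the most, 29, followed by chromosome 8 with 22, chromosome 17 with 19 and chromosome 6 with 17. These 4 chromosomes held 38.0% of the tall and narrow regions (31.7 to 44.6) and 40.5% of the wider tall regions (36.8 to 44.3), but 25.2% of the whole list. These 4 were picked for holding the most tall and narrow regions, so the 38.0% is partly set by that choice and is a description only. The narrow share of the tall regions ran from 14.3% on chromosomes 9 and 19 to 39.4% on chromosome 1 (13 of 33, 22.9 to 57.9). The intervals of all 20 chromosomes included the overall 25.1%, so no chromosome could be told apart at these numbers.

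**Figure D4:**
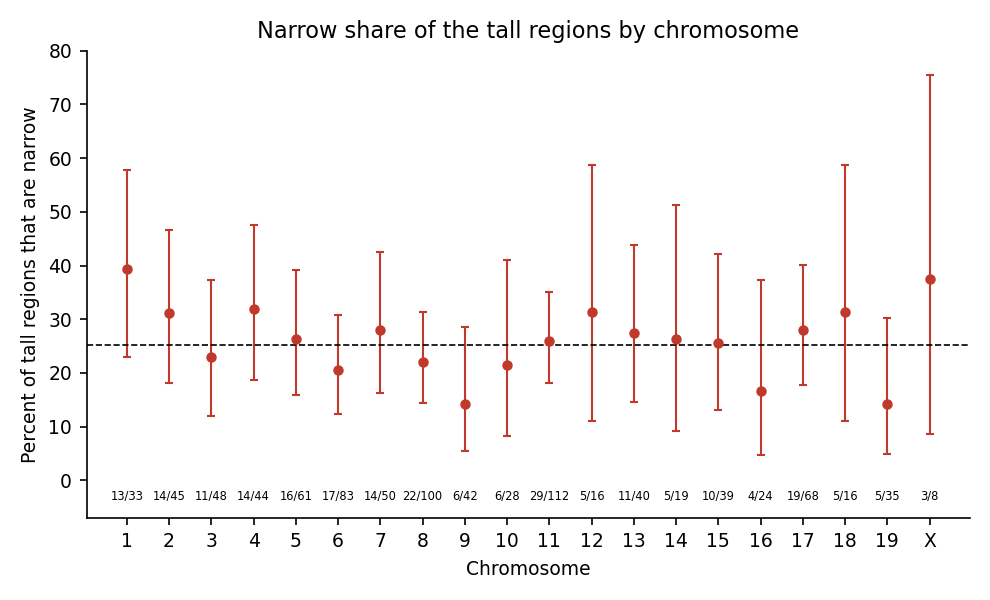
Percent of tall regions that are narrow (vertical axis) on each chromosome (horizontal axis), with exact Clopper-Pearson 95% intervals as bars and the numbers of narrow and of all tall regions under each point. The dashed line is the overall 25.1%, and it crosses the interval of each of the 20 chromosomes.

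Chromosome X held 3 of the 229, or 1.31% (0.271 to 3.78). Its share of the whole list was 2.31% and of the wider tall regions 0.733%, and both lie inside that interval. Chromosome 13 has the longest unbroken stretch of wider tall regions in the list, 13 of them with heights of 207 to 531, so several comparisons below are also given without it. It held 11 of the 229, or 4.80% (2.42 to 8.43), against 4.25% of the wider tall regions. None of its 11 rose above 193, and their median was 145.

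Centring differed on chromosome 11. Of its 29 tall and narrow regions, 15 had a central summit, or 51.7% (32.5 to 70.6), against 161 of 200 on the other chromosomes, or 80.5% (74.3 to 85.8). The difference was -28.8 points (-46.7 to -10.8). Of the 20 chromosomes it was the only one whose interval left out the overall 76.9%, and it was singled out after all 20 had been seen. Among the wider tall regions, chromosome 11 had 43.4% with a central summit, near their overall 41.3%.

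At short range the tall and narrow regions showed no resolved difference from the wider tall ones in how often they had neighbours. Another region lay within 10 kb, from edge to edge, of 52 of the 229, or 22.7% (17.4 to 28.7). This share was 17.2% over the whole list and 23.8% for the wider tall regions (difference -1.05 points, -7.01 to 5.55). Neighbours of neighbours are counted again in such shares, so these intervals may be too narrow.

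At 25 and 50 kb they had neighbours less often than the wider tall regions, and at 100 kb the interval of the difference included 0. The median gap to the nearest region was 33.6 kb (26.3 to 41.9) in the tall and narrow set, 22.9 kb (20.9 to 26.7) in the wider tall set and 35.8 kb in the whole list. Within 25 kb, a distance added after the gaps were seen, 41.0% had a neighbour, close to the 39.7% of the whole list, against 52.3% of the wider tall regions (difference -11.3 points, -18.5 to -3.82). With heights of up to 150 only in both sets, that difference was -9.77 points (-17.8 to -1.39). Within 50 kb the shares were 64.2% and 71.7%, beside 59.7% over the whole list (difference -7.51, -14.7 to -0.627). With heights of up to 150 the difference at 50 kb was -6.98 (-15.1 to 0.875), an interval that includes 0. Without chromosome 13 it was -6.22 (-13.6 to 0.806). Within 100 kb the shares were 80.8% and 85.2%, beside 77.1% over the whole list (difference -4.40, -10.5 to 0.995).

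**Figure D5:**
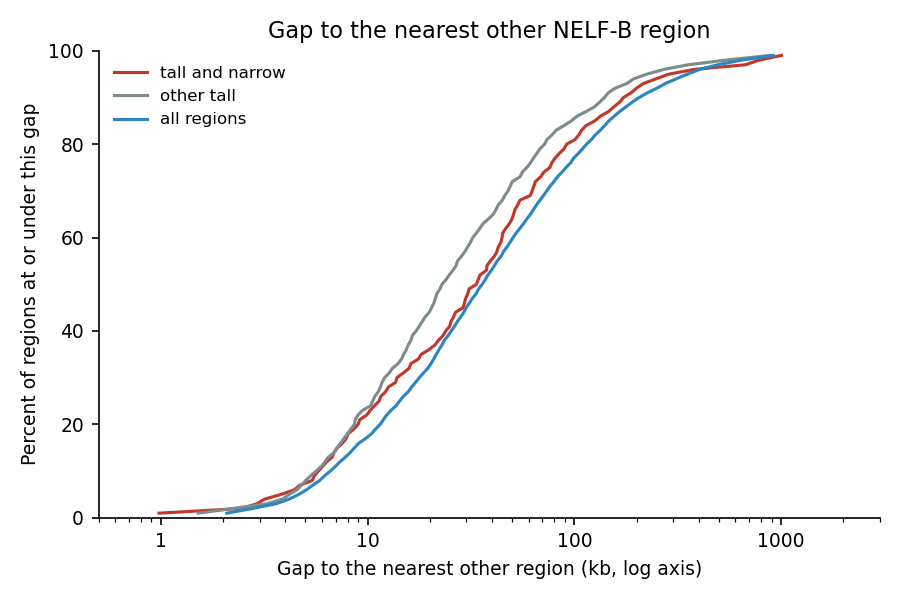
Cumulative percent of regions (vertical axis) by the gap to the nearest other region (horizontal axis, kb, log axis), from percentile 1 to percentile 99. At 10 kb the curves of the tall and narrow regions and the wider tall regions stand at 22.7% and 23.8% and that of the whole list at 17.2%. Their medians are 33.6, 22.9 and 35.8 kb. Which curve has the longest gap changes in the tail. At percentile 95 it is the whole list, with 352 kb, against 287 kb for the tall and narrow and 225 kb for the wider tall regions. At percentile 97 it is the tall and narrow regions, with 672 kb against 356 kb for the wider tall regions and 494 kb for the list.

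The nearest neighbours themselves had ordinary heights. The median height of the nearest region was 46 (40 to 49) for the tall and narrow regions, 51.5 (48 to 55) for the wider tall regions and 44 over the whole list. The nearest region was itself tall for 29 of the 229, or 12.7% (8.65 to 17.7). Over the whole list this share was 10.1%, and for the wider tall regions 19.5% (difference -6.84 points, -11.7 to -1.17). With heights of up to 150 only, the difference was -3.01 (-8.37 to 3.29), and without chromosome 13 it was -4.92 (-9.84 to 0.863). Both of these intervals include 0. A narrow nearest region of any height was found for 50.7% of the tall and narrow regions, 52.7% of the whole list and 45.2% of the wider tall regions (difference 5.49, -1.95 to 12.9).

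Tall nearest regions were split almost evenly between the width classes, 14 narrow and 15 wider. The nearest region was tall and narrow for 14 of the 229, or 6.11% (3.38 to 10.0), for 2.48% of the whole list and for 2.64% of the wider tall regions (difference 3.47 points, 0.616 to 7.48). It was tall and wider for 15 of the 229, or 6.55% (3.71 to 10.6), which is near the 7.65% of the whole list, and for 16.9% of the wider tall regions (difference -10.3 points, -14.2 to -5.55). With heights of up to 150 these differences were 3.95 (0.698 to 8.53) and -6.96 (-11.2 to -1.72), and without chromosome 13 they were 3.67 (0.670 to 7.86) and -8.59 (-12.5 to -3.79). Regions that are each other's nearest neighbour enter these counts from both sides. Any tall region within 100 kb was found for 27.5% of the tall and narrow regions, 20.4% of the whole list and 38.9% of the wider tall regions (difference -11.3, -17.9 to -4.25). With heights of up to 150 that difference was -6.47 (-13.8 to 1.44), which includes 0. Without chromosome 13 it was -10.0 (-16.7 to -2.74), which does not. At the other 2 distances computed, the intervals included 0: within 10 kb the shares were 5.68%, 2.61% and 6.89% in the same order (difference -1.21, -4.39 to 2.93), and within 1000 kb they were 76.9%, 62.0% and 74.3%, with the opposite sign (2.52, -4.15 to 8.56).

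A few tall and narrow regions lay beside each other. Consecutive pairs under 10 kb apart numbered 3. On chromosome 15, the region from 76729791 to 76730890 (height 106) lay 3.16 kb from that at 76734054 to 76735098 (height 195). On chromosome 6, 5.39 kb separated 83058458 to 83059561 (height 93) from 83064955 to 83065855 (height 114). The closest pair was on chromosome 11, where 58 bp separated the region from 87284941 to 87285439 (height 109) from that at 87285498 to 87286631 (height 94). Their summits were 672 bp apart, the shortest distance between summits in the whole list, and joined into 1 they would span 1691 bp and miss the width limit. On chromosome 12, the region from 92826324 to 92827437 (height 121) lay 550 bp from a wider tall region of height 112. These were the only 3 of the 229 with a neighbour within 2 kb, or 1.31% (0.271 to 3.78). This share was 0.880% over the whole list and 1.61% for the wider tall regions.

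Most tall and narrow regions had no other of their kind within 500 kb. Within 100 kb and within 1000 kb, such a neighbour was still more frequent for them than over the whole list. When regions up to 500 kb apart were chained, 148 of the 229 stood alone, 56 fell into 28 pairs and 25 into 7 runs of 3 or 4. No such counts are given for the other sets. A further tall and narrow region lay within 100 kb of 13.1% of the 229, 7.62% of the wider tall regions and 5.74% of the whole list. Within 1000 kb these shares were 48.0%, 38.4% and 29.6%. The tightest run spanned 29.8 kb on chromosome 11 from 87256787 to 87286631, with heights of 94, 109 and 297, and included 2 wider tall regions. On chromosome 17, a run of 3 from 24844040 to 25032511 held the tallest of all, 379, beside heights of 93 and 97. A run of 4 on chromosome 8 from 72273227 to 73034885 had heights of 128 to 135 and lay among 22 regions, 5 of them tall and wider. These runs were looked for after the list had been seen.

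The most isolated of the 229 were not the tallest. On chromosome 14, the region from 19103035 to 19104188 had a height of 98 and its nearest neighbour 1466 kb away. On chromosome 6, the region from 18798091 to 18799085 reached 125 at a gap of 1211 kb, and on chromosome 4 the region from 73897147 to 73898257 reached 114 at 1026 kb. The region from 111184714 to 111185722 on chromosome 13 was the tallest of these 5, with a height of 192 at a gap of 950.2 kb. The fifth, on chromosome 1 from 161161756 to 161162608, had a height of 93 at 811.5 kb. In all, 8 of the 229, or 3.49% (1.52 to 6.77), had no other midpoint within 500 kb, against 2.97% of the whole list and 2.35% of the wider tall regions (difference 1.15, -1.08 to 4.52). The median number of regions within 500 kb was 8 (7 to 10) for the tall and narrow regions and 9 (9 to 10) for the wider tall ones. Over the whole list it was 7, and over narrow regions of lower height it was 6.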

How the data were processed

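The deposited file has a peak track, an interval track and an active-region track, per the file headers, each with 9095 entries. The active regions equal the intervals. Summits and intervals were joined by order, and all 9095 summits lay inside their interval. Column 4 of the peak track is a score from the authors, whose unit no header states. It is called height here. MACS, which calls peaks, is named in the submitters' processing notes. Not given in the sources used here are its version and settings, the aligner, the build and whether the input was used. In the gene table at hand (GRCm38.p6), 88 regions start past the last gene of their chromosome, by up to 7.19 Mb on chromosome 7. The list is thus in other coordinates, so no gene and no sequence was taken from it.

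Depth is unknown. Starts were raised by 1 to count from 1. Summits are printed as deposited, and the left side of a summit was measured from the deposited start. Width is end minus deposited start. Shares have exact Clopper-Pearson intervals, differences of shares have Newcombe intervals and medians have exact binomial intervals, all at 95%. Regions of a single library are no replicates, so there are no p-values. Neighbour measures and intervals were tested on simulated data. Named regions followed a rule: the 10 tallest, the 5 narrowest, the 5 tallest for their width, the 5 with the smallest and the 5 with the largest gap, the 5 with the least central summit, the 3 next to each limit, and consecutive pairs under 10 kb. The regions, the rule and the measures were chosen with earlier results of these data known. The comparisons by width class, with narrow regions of lower height, at 25 kb, on chromosome 11 and of runs were added after the values were seen. Software was statsmodels 0.14.6, SciPy 1.17.1, pandas 2.3.3, matplotlib 3.10.9, NumPy 2.4.6 and Python 3.11.15.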

Additional observations from a re-analysis of the deposited data

How the results depend on the processing

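Of the 76 alternatives tried for 10 results, 11 moved a value outside its interval or a count by over 1.5 times, and 65 did not. Raising summits by 8 bp, used for 2 results, was chosen after seeing the data. The set grew to 396 regions for heights of at least 80 and shrank to 130 for heights of at least 110 and to 83 for widths of at most 1000 bp, by construction. With widths of up to 1.25 kb the median distance from summit to midpoint was 71 bp. Neighbours were found for 7.42% within 5 kb and 64.2% within 50 kb, and the median number of regions within 100 kb was 2. A tall nearest region was found for 7.69% at heights of at least 110 and 4.82% at widths of at most 1000 bp. A narrow nearest region was found for 33.7% with widths of at most 1000 bp and 61.4% with at most 1.25 kb. Limits and distances also redefine these measures, and the cause of the moves was not tested further. The sign of the difference from the wider tall regions turned in 4 alternatives, each of a difference near 0: neighbours within 10 kb at heights of up to 150 (20.9% against 18.3%) and without chromosome 13 (23.9% against 23.0%), the share on chromosome 13 at 1.25 kb (3.54% against 4.90%), and regions within 500 kb at 1000 bp (10 against 9). The central summit share stayed at 72.0% to 80.8% under all 10 of its alternatives. Leaving out a replicate was not run, and no paired analysis was possible because each group is a single library.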
